A study of Mus musculus with 4 samples.

Results

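The respiratory chain members described here are the nuclear genes whose symbols begin with Nduf, Uqcr, Cox4 to Cox8 or Atp5, together with Sdha, Sdhb, Sdhc and Sdhd. The rule uses gene names only and found 89 of the 14382 genes in the table: 44 of complex I, 4 of complex II, 8 of complex III, 16 of complex IV and 17 of complex V. Of these, 78 encode subunits of a finished complex. The other 11 are the complex I assembly factors Ndufaf1 to Ndufaf7, the Ndufa4 paralog Ndufa4l2, the supercomplex factor Cox7a2l, and Atp5s and Atp5sl, which match by symbol only. PolyA RNA was measured in mouse embryonic stem cells of the genotype Arid1af/f:CreERT2, in which loxP-flanked Arid1a can be removed by a Cre recombinase that 4-hydroxytamoxifen (4-OHT) activates. The control group received ethanol (2 libraries) and the treated group 1 µM 4-OHT (2 libraries), each for 24 hours, with RNA taken 72 hours after treatment. All 4 libraries came from cells of this genotype grown with LIF on irradiated embryonic fibroblast feeders. Cells with CreERT2 and unfloxed Arid1a were not analysed here, so effects of 4-OHT or Cre activity cannot be told apart from those of Arid1a loss. The labels do not say that replicates came from separate cultures, so p-values measure the spread between these libraries, which may be technical. Libraries were made with an unstranded or a stranded kit without saying which, so a kit difference cannot be told apart from the treatment.

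The respiratory chain carries electrons from NADH (complex I) and succinate (complex II) through ubiquinone, complex III and cytochrome c to oxygen at complex IV, and complex V, the ATP synthase, uses the resulting proton gradient to make ATP. Most subunits are encoded in the nucleus and the rest in mitochondrial DNA. Pluripotent stem cells are known for high glycolysis beside a working respiratory chain, and some subunits have tissue- or oxygen-dependent paralogs.

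Libraries are called A and B within a group, since they could not be matched to replicate numbers. Values are CPM, reads scaled to the effective library size, and 1 read was worth 0.142 to 0.159 CPM. Arid1a itself had 517 and 502 CPM with ethanol and 241 and 213 CPM with 4-OHT, a log2 fold change of -1.16 on the log2(CPM + 1) scale (SE 0.07, limma adjusted p = 7.27e-06). Summed levels of 10 embryonic stem cell markers were 3861 to 3989 CPM with ethanol and 4051 to 4252 CPM with 4-OHT. Of the 10, Fgf4, Nanog and Tdgf1 rose while Esrrb and Sox2 fell in limma, where 5.24% of all genes rose and 4.22% fell. Of 18 fibroblast markers, 14 were measured, and their sum was 866 to 890 CPM with ethanol and 728 to 765 CPM with 4-OHT. Tagln, an actin-binding protein of smooth muscle and fibroblasts, fell (649 and 625 CPM to 485 and 465 CPM), while Col1a2 and Thy1 rose. The lower sum came from Tagln: the other 13 markers, a split made after the values were seen, summed to 240.7 and 241.0 CPM with ethanol and 279 and 263 CPM with 4-OHT. Dcn, Lum, Postn and Twist2 were not among the measured genes. The part of feeder RNA in the results below was not tested, and in bulk RNA fewer cells of a type and less RNA per cell cannot be told apart. The 4-OHT libraries also differed from each other: B was above A for 71 of the 89 members, with a median log2 ratio of 0.12, against -0.01 over all genes tested.

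Respiratory chain transcripts as a group differed little between the treatments. In limma's test across 14376 genes with Benjamini-Hochberg adjustment, 1 member rose (Ndufa4l2) and 1 fell (Ndufb4) at an adjusted p under 0.05, and the other 87 did not pass. Over all genes tested 9.46% passed, 5.24% higher and 4.22% lower with 4-OHT. The members' median log2 fold change was -0.05, beside -0.00 over all genes tested. Of the 89, 66 (74.2%) were below 0, against 50.4% of all genes. At a mean of 10 CPM or more the shares were 76.8% of members and 53.9% of genes. At that level the median was -0.06 over members and -0.03 over all genes with a transcript under 1 kb. The 89 summed to 12891 and 12647 CPM with ethanol and to 12052 (A) and 12647 (B) CPM with 4-OHT. The lower sum was thus mostly that of 4-OHT library A. Both 4-OHT libraries lay below both ethanol libraries for 24 members, and above them for 9, where the shares over all genes were 25.7% and 26.4%. For 82 of the 89 the 95% interval of the difference lay inside 1.5-fold in either direction. The exceptions were Ndufb4, Ndufs5, Ndufa4l2, Cox4i2, Cox7b2, Cox8c and Atp5s, of which all but Ndufs5 averaged below 10 CPM. An interval inside 1.5-fold does not show that a gene was unchanged. That of Pdk1, which limma called higher, ran from 0.26 to 0.53 in log2 and also lay inside. The same share over all genes was not computed. edgeR's quasi-likelihood test on the recovered reads called 5 members of the 86 that passed its filter: Ndufa4l2 and Uqcrq higher, and Ndufb4, Sdhb and Cox7b lower, where 15.8% of all genes passed, 8.12% higher and 7.63% lower. DESeq2 called Ndufa4l2 alone, where 5.07% of all genes passed.

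**Figure D1:**
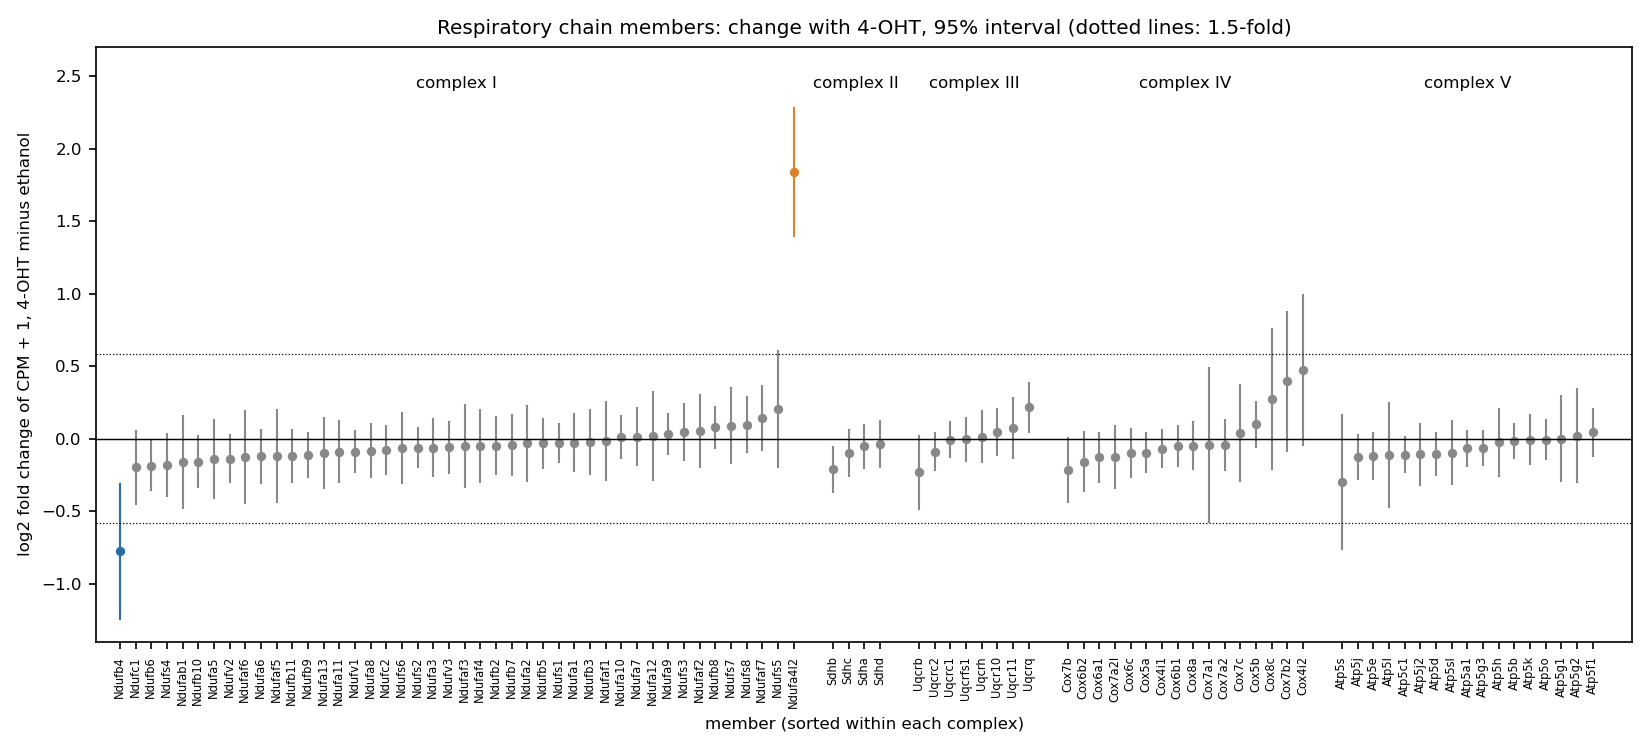
Change with 4-OHT (vertical axis, log2 of CPM + 1, treated less control) of each of the 89 members, sorted within complexes I to V, with 95% intervals from limma. Ndufa4l2 (orange) is the member that rose and Ndufb4 (blue) the one that fell, and 82 intervals lie inside the dotted lines at 1.5-fold.

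Ndufa4l2 had the largest change of any member. It encodes a paralog of Ndufa4, a small protein first assigned to complex I and now placed with complex IV, and it is known as a gene induced in low oxygen. The coding sequences of both are shown because the paralogs are the pair in which the change fell, with capitals where an aligned base differs or has no partner. Over 242 aligned bases 165 were identical (68.2%), so reads of the paralogs can be told apart. The genes lie on chromosome 10 (127514967 to 127517154, plus strand, Ndufa4l2) and chromosome 6 (11900292 to 11907497, minus strand, Ndufa4) of GRCm38, and the coding sequences come from GENCODE vM21.
Ndufa4l2: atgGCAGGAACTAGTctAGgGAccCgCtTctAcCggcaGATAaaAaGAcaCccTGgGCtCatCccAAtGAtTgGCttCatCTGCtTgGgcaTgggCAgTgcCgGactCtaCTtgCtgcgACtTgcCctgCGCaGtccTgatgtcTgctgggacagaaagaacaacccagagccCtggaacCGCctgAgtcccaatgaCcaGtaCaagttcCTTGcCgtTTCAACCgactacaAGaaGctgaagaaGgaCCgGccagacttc
Ndufa4: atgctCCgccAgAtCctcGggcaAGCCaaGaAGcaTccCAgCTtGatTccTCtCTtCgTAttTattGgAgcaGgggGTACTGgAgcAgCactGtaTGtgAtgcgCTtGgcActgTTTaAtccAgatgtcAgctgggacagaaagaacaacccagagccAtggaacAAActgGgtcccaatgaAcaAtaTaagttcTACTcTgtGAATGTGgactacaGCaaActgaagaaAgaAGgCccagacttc

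Ndufa4l2 stood at 1.70 and 1.40 CPM in the ethanol libraries (11 and 9 reads) and at 7.53 and 8.74 CPM in the 4-OHT libraries (53 and 55 reads). The groups did not overlap, and mean CPM was 5.23-fold higher with 4-OHT (1.55 ± 0.213 against 8.14 ± 0.855, SD, n = 2). Its log2 fold change was 1.84 (SE 0.20, limma adjusted p = 0.000421), and DESeq2 also called it (adjusted p = 0.000139). Leaving out either 4-OHT library left limma with no call for any gene, at a lowest adjusted p of 0.129 without A and 0.121 without B, and with 2505 and 2514 genes at an unadjusted p under 0.05. edgeR called Ndufa4l2 without either of them (adjusted p = 6.27e-10 without A and 2.50e-08 without B). Ndufa4 is carried in the table without a symbol and was found by its RefSeq number, so it is no member by the rule. It had 199 and 181 CPM with ethanol and 166 and 190 CPM with 4-OHT, which overlapped (limma adjusted p = 0.502). Per kilobase of transcript, Ndufa4l2 made up 0.462% of the pair's sum with ethanol and 2.53% with 4-OHT. Those shares depend on the transcript length used, and were 1.02% and 5.45% over the union of annotated exons.

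**Figure D2:**
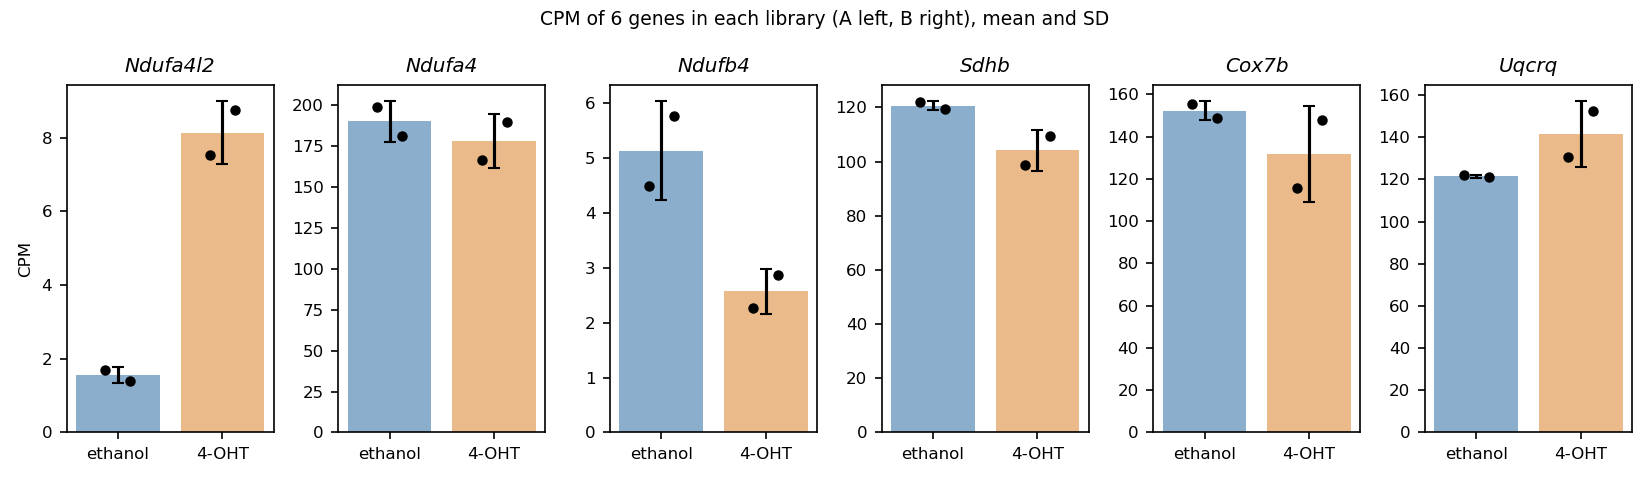
CPM of Ndufa4l2, Ndufa4, Ndufb4, Sdhb, Cox7b and Uqcrq in each library (points, A left and B right), with group means (bars) and SD (n = 2). Ndufa4l2 rises from 1.40 to 1.70 CPM up to 7.53 to 8.74 CPM, while Ndufa4 overlaps between groups.

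The 44 members of complex I, the NADH dehydrogenase, summed to 3136 and 3021 CPM with ethanol and 2846 and 3099 CPM with 4-OHT. The ratio was 0.966 ± 0.063 (SD propagated from 2 libraries a group). These include the assembly factors and Ndufa4l2. The 36 finished subunits alone summed to 2968 and 2857 CPM against 2682 and 2920 CPM, a ratio of 0.962 ± 0.063. The 7 core subunits, which hold the flavin and iron-sulfur centres or line the electron path, had a median log2 fold change of -0.03, and none passed. Ndufs1, the largest of them, had 198 and 205 CPM with ethanol and 191 and 204 CPM with 4-OHT. Ndufv1, the subunit that binds NADH, had 200 and 181 CPM against 178 and 180 CPM. The 29 accessory subunits, which surround and stabilise the core, had a median of -0.07, and Ndufb4 alone fell. The 7 assembly factors had a median of -0.05, and none passed.

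Ndufb4 had 4.49 and 5.77 CPM with ethanol (29 and 37 reads) and 2.27 and 2.86 CPM with 4-OHT (16 and 18 reads). The groups did not overlap, and the log2 fold change was -0.78 (SE 0.21, limma adjusted p = 0.0439). edgeR gave -1.003 (adjusted p = 0.0119). The call was lost with a pseudocount of 0.1 (-0.97, limma adjusted p = 0.0743) and in DESeq2 (-1.003, adjusted p = 0.387). Without ethanol library B it was also lost in limma (adjusted p = 0.197) and edgeR (adjusted p = 0.21), and without 4-OHT library A in edgeR (adjusted p = 0.132). Its coding sequence is 100% identical to that of a processed pseudogene, Ndufb4c, so reads within the coding part match both copies and its level is uncertain.

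Complex II, succinate dehydrogenase, also works in the TCA cycle. Its 4 genes summed to 764 and 722 CPM with ethanol and 703 and 701 CPM with 4-OHT, a ratio of 0.946 ± 0.038. All 4 had negative log2 fold changes, and limma called none. Sdhb, the iron-sulfur subunit, had 122 and 119 CPM with ethanol and 98.8 and 110 CPM with 4-OHT, a log2 fold change of -0.21 (limma adjusted p = 0.0902, edgeR adjusted p = 0.0371). edgeR kept that call without 4-OHT B only, and its adjusted p was 0.343 without 4-OHT A, 0.224 without ethanol A and 0.141 without ethanol B. Sdha, the flavoprotein, had 343 and 317 CPM against 333 and 302 CPM, which overlapped. The membrane anchors Sdhc (104 and 98.3 CPM against 98.1 and 90.1 CPM) and Sdhd (195 and 187 CPM against 173 and 199 CPM) did not pass in either tool.

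Complex III, the cytochrome bc1 complex, had a ratio of summed CPM of 1.005 ± 0.028 and a median log2 fold change of 0.00 over its 8 genes. Uqcrc1, a core protein and the highest of them in CPM, had 382 and 389 CPM with ethanol and 393 and 375 CPM with 4-OHT. The member farthest from 0 was Uqcrb, a small subunit near the ubiquinone site, at 30.4 and 27.1 CPM against 25.7 and 22.9 CPM (log2 fold change -0.23, limma adjusted p = 0.25). Uqcrq, another small subunit, had 122 and 121 CPM against 131 and 153 CPM, a log2 fold change of 0.21 (limma adjusted p = 0.118, edgeR adjusted p = 0.029). Library B held the higher 4-OHT value. edgeR kept its call of Uqcrq without 4-OHT A (log2 fold change 0.33). It was lost without 4-OHT B (0.10), ethanol A (0.22) or ethanol B (0.21). Cyc1, the cytochrome c1 of this complex, and Cycs, cytochrome c, lie outside the symbol rule and did not pass (298 to 292 CPM and 37.9 to 38.3 CPM, group means). Cyct, the testis form of cytochrome c, rose from 8.99 and 7.64 CPM to 14.8 and 14.0 CPM (limma adjusted p = 0.0161).

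The 16 members of complex IV, cytochrome c oxidase, had a ratio of summed CPM of 0.947 ± 0.079, and limma called none of them. The 10 general isoforms had a median log2 fold change of -0.06. Cox7b had 155 and 149 CPM with ethanol and 116 and 148 CPM with 4-OHT (log2 fold change -0.22, limma adjusted p = 0.215, edgeR adjusted p = 0.042). Its lower mean came from 4-OHT library A. edgeR kept its call of Cox7b without 4-OHT B (log2 fold change -0.40). It was lost without 4-OHT A (-0.04), ethanol A (-0.18) or ethanol B (-0.24). Cox4i1 was the highest in CPM (390 and 375 against 351 and 378), and Cox4i2, its lung- and oxygen-dependent paralog, had 0.310 and 0.312 CPM against 0.569 and 1.11 CPM, 2 to 7 reads a library. Cox8c and Cox7b2, known from testis, were below 1 CPM in all 4 libraries. Cox6b2, another testis form, was well measured at 46.8 and 42.4 CPM with ethanol and 38.5 and 41.0 CPM with 4-OHT (limma adjusted p = 0.325). Per kilobase it made up 25.7% of the sum of Cox6b1 and Cox6b2 with ethanol and 24.2% with 4-OHT, or 16.5% and 15.4% over the union of exons. Cox7a1, the heart and muscle form, made up 4.78% and 4.69% of its pair with Cox7a2. Of 8 cardiac and skeletal muscle markers 5 were measured, and Myh6 rose while Acta1 fell, where 9.46% of all genes passed in limma. Cox6a1 (196 and 188 CPM against 162 and 190 CPM), Cox8a (275 and 249 CPM against 238 and 268 CPM) and Cox7a2l (56.0 and 54.4 CPM against 46.2 and 55.2 CPM) overlapped or did not pass.

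The 17 members of complex V, the ATP synthase, summed to 6028 and 5998 CPM with ethanol and 5763 and 5886 CPM with 4-OHT. The ratio was 0.969 ± 0.015, and also 0.969 over the 15 finished subunits alone. None of the 17 passed in limma or edgeR. At an unadjusted p under 0.05 limma had 0 of the 17, where 23.9% of all genes lay under it. Atp5b, the catalytic beta subunit, was the highest member in CPM and per kilobase, with a log2 fold change of -0.02 (limma adjusted p = 0.884). All 5 genes of the F1 head and central stalk had negative values, with a median of -0.11. Of the 17, Atp5s, which matches by symbol only, lay farthest from 0, at 5.42 and 6.08 CPM against 3.70 and 5.40 CPM (log2 fold change -0.30, limma adjusted p = 0.435). The log2 fold changes of the 15 finished subunits ran from -0.13 to 0.04. Atp5g1, Atp5g2 and Atp5g3 encode the same c-ring subunit, and Atp5g3 made up 86.6% of their sum per kilobase with ethanol and 85.9% with 4-OHT. Atp5g1 had 44.5 and 39.9 CPM against 36.2 and 49.0 CPM, and Atp5g2 43.1 and 42.4 CPM against 36.0 and 52.3 CPM. For both genes the ethanol values lay between those of the 4-OHT libraries.

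Genes of glycolysis moved in the same libraries. In a list of 25 glycolysis genes, 11 rose, 2 fell and 12 did not pass in limma, with a median log2 fold change of 0.15. Over all genes tested 5.24% rose and 4.22% fell. Their sum went from 8925 and 8867 CPM to 11181 and 11282 CPM, a ratio of 1.263 ± 0.010, beside 0.967 ± 0.035 for the 89 respiratory members. Ldha, which makes lactate, rose from 605 and 610 CPM to 903 and 962 CPM, and Slc16a3, a lactate exporter, from 86.6 and 89.7 CPM to 185 and 190 CPM. Ldhb fell from 80.8 and 79.1 CPM to 61.1 and 56.6 CPM, and Hk2, a hexokinase, from 251 and 263 CPM to 225 and 221 CPM. The list was chosen with earlier results of these data known, and a test of the difference between the lists was not made.

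**Figure D3:**
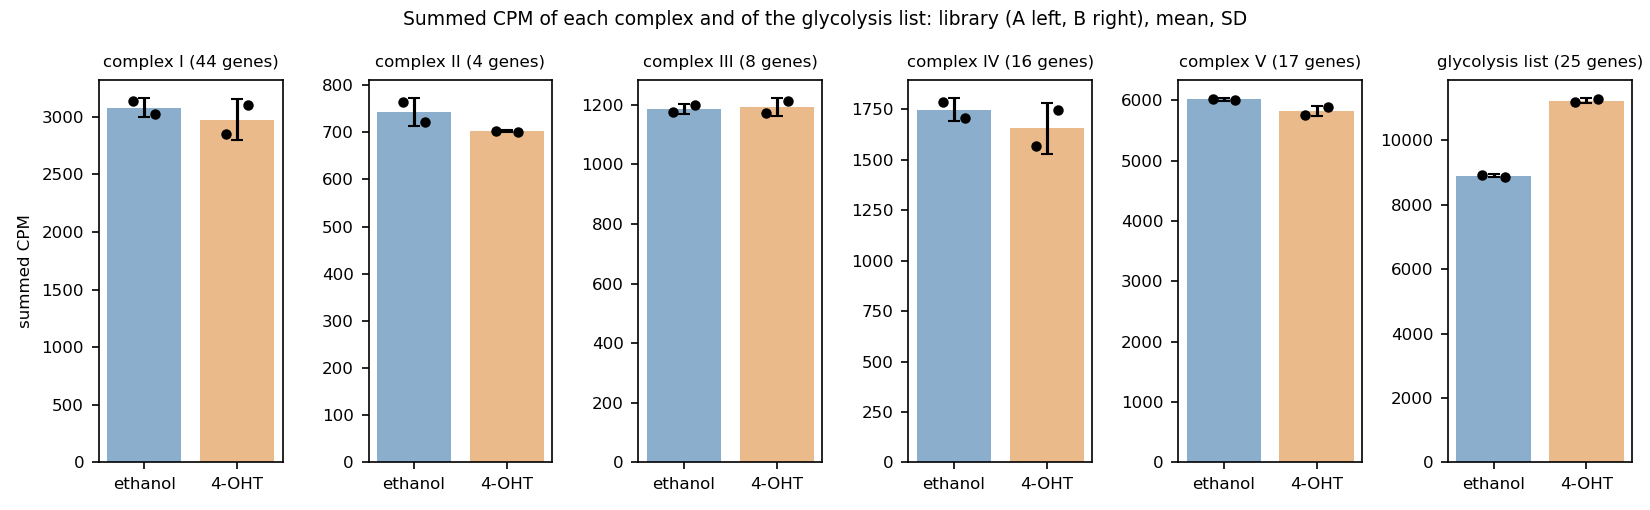
Summed CPM of the members of complexes I to V and of the glycolysis list in each library (points, A left and B right), with group means (bars) and SD (n = 2). The glycolysis sum is higher in both 4-OHT libraries, at a ratio of 1.263, while the ratios of the complexes run from 0.946 to 1.005.

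At the entry of pyruvate into mitochondria, 2 of 13 genes passed, beside 9.46% of all genes. Pdk1, a kinase that inhibits pyruvate dehydrogenase, rose from 122 and 127 CPM to 164 and 165 CPM (limma adjusted p = 0.00247). Pdha1, a subunit of that enzyme, fell from 458 and 441 CPM to 360 and 359 CPM (limma adjusted p = 0.00416). Gpd2, which passes electrons from glycerol 3-phosphate to ubiquinone, fell from 147 and 140 CPM to 124 and 107 CPM and was the only gene called among 7 on other routes into ubiquinone. None of the 14 TCA cycle genes, the 42 assembly factors outside the rule, the 16 regulators of respiratory genes or the 77 mitochondrial ribosomal proteins passed in limma or edgeR. At an unadjusted p under 0.05 limma had 2 TCA cycle genes lower and 3 mitochondrial ribosomal proteins higher. At that cut 1637 of all 14376 genes were lower and 1804 higher. Of 8 carrier and uncoupling genes limma called 0 (3 lower at an unadjusted p under 0.05). edgeR called Ucp2 and Vdac1 lower, where it called 7.63% of all genes lower. Mitochondrially encoded subunits were not analysed here.

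The spread between the 4-OHT libraries was shared with other short transcripts. The median transcript length was 870.5 bases over the members and 2856 over all genes. Among genes at 10 CPM or more, the median log2 ratio of 4-OHT B over A was 0.11 for transcripts under 1 kb and -0.05 for those over 4 kb. With no cut on level, 75 of 85 cytosolic ribosomal protein genes were higher in B. Across the 9658 genes at 10 CPM or more with a transcript length, the Spearman correlation of length with that ratio was -0.29. In the ethanol pair the relation ran the other way (0.16), and with the log2 fold change of 4-OHT over ethanol it was 0.02 over these genes and -0.04 over the 82 members among them. These are descriptions across genes, which share the depth of their libraries. Without 4-OHT library B, edgeR called 9 members lower and 1 higher, where 6.26% and 7.2% of all genes were called. Without A it called 0 lower and 2 higher, where the shares were 5.87% and 6.14%.

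**Figure D4:**
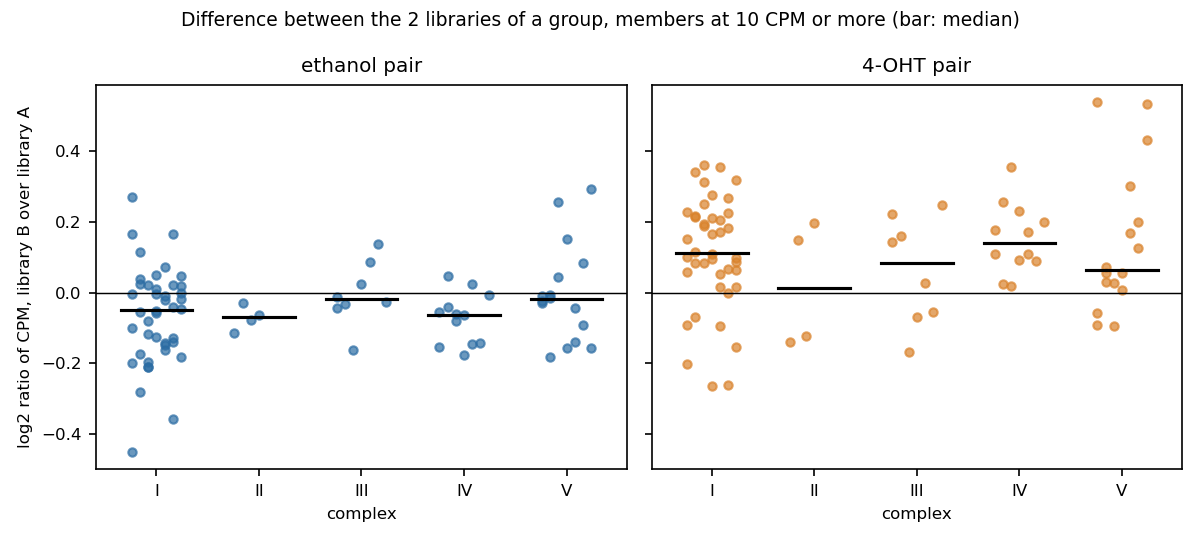
Log2 ratio of CPM, library B over library A (vertical axis), for members at 10 CPM or more in complexes I to V, for the ethanol pair (left) and the 4-OHT pair (right), with medians as bars. In the 4-OHT pair most points lie above 0, and over all 89 members the median is 0.12.

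Some members have near-identical copies elsewhere in the genome. A coding sequence matched another annotated transcript at 95% identity or more over at least 50% of its length for 23 members, and for 21 the match was a pseudogene. Ndufs5, an accessory subunit of complex I, shows how close they can be. Coding bases 6 to 105 are printed beside the same stretch of its pseudogene BC002163 on chromosome 16, with capitals at the differing bases, which are all 2 differences over 318 aligned bases.
Ndufs5: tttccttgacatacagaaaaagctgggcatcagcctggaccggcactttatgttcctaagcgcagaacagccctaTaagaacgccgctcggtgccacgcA
BC002163: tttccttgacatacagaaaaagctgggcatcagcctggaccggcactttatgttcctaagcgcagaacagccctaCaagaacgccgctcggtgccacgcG

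Ndufs5 had 11.9 and 8.74 CPM with ethanol and 12.8 and 11.1 CPM with 4-OHT. A gene with the RefSeq symbol Ndufs5-ps had 18.1 and 15.0 CPM against 18.2 and 15.4 CPM. Whether it is the same locus as BC002163 was not checked. Among general subunits, the 20 with a pseudogene copy had a median level of 63.0 CPM per kilobase with ethanol, and the 53 without had 121. With the union of exons as length these were 30.1 and 70.6. Of the 10 lowest subunits per kilobase, 7 had such a copy. Ndufb4, Ndufab1 and Ndufa12 stood lowest. How reads with several matches were counted is not given.

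**Figure D5:**
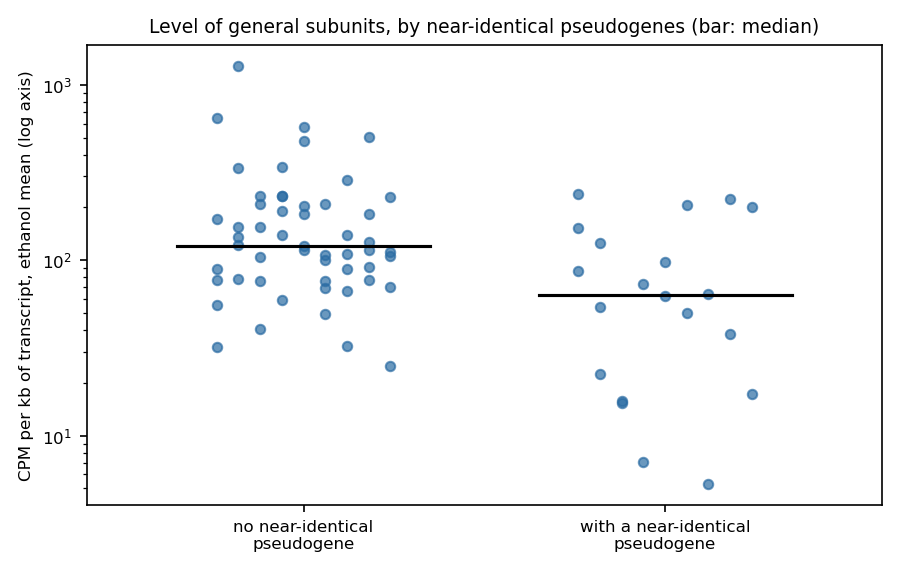
Ethanol mean level in CPM per kilobase of transcript (log axis) of 53 general subunits without and 20 with a near-identical pseudogene, with medians as bars. The medians are 121 and 63.0, and the lowest points, Ndufb4 among them, have a copy.

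Promoters were searched for motifs of factors known for respiratory genes. RefSeq (GRCm38.p6) gave 250 bases before the start for 74 members. Of 76 promoters checked, which include genes matched by RefSeq symbol only, 57 had the bases after their start near the start of a GENCODE transcript. RefSeq and GENCODE starts may thus differ. The NRF1 palindrome, which reads the same on both strands and is the run of 10 capitals below, was in 5 of them (6.76%), against 1.57% of 11353 promoters of the same length. The windows of 40 bases around these matches are shown because NRF1 is a known activator of respiratory genes, with the palindrome in capitals. That of Atp5g2 lies inside the gene as annotated in GENCODE vM21 (minus strand, up to 102672352), and that of Atp5k overlaps its gene (minus strand, up to 108434448).
Atp5g2 promoter, chr15:102671065-102671104 (-): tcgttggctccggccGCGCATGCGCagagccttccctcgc
Atp5k promoter, chr5:108434425-108434464 (-): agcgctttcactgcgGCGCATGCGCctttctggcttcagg
Cox6a1 promoter, chr5:115349096-115349135 (-): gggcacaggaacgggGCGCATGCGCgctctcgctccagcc
Ndufa11 promoter, chr17:56717687-56717726 (+): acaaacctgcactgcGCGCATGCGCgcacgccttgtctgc
Ndufaf4 promoter, chr4:24897955-24897994 (+): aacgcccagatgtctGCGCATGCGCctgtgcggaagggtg

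Of these 5 genes none passed in limma or edgeR with all 4 libraries, and their 95% intervals lay inside 1.5-fold. Cox6a1 was among the members that edgeR called lower without 4-OHT library B (log2 fold change -0.25). The letters CCGGAAG, read on both strands for ETS and GABP factors, were in 12 member promoters (16.2% against 13.1% of all). ACGTG or GCGTG, the core of hypoxia response elements, was in 40 on either strand (54.1% against 56.2%). Ndufa4l2 was not among the 74 members with a promoter, so its promoter was not searched for any motif. A YY1 motif of 10 letters was in 0 of the 74, against 0.590% of all. A match describes letters in this window and is not a binding site.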

How the data were processed

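PolyA RNA-seq of 4 samples was used, 2 given ethanol and 2 given 4-OHT. Per the submitters' processing notes, the tools were HISAT2 (aligner), Trimmomatic, FastQC and edgeR on mm10, all without versions. Which program counted reads, and whether by strand, is not given in the sources used here. Per the file headers, the authors deposited each group's mean CPM and a log2 fold change and adjusted p-value. The authors' log2 values and p-value column were set aside, since their rows do not match the genes (Spearman correlation with the ratio of mean CPM in the same row 0.016). A group's mean CPM is a sum of whole reads of 2 libraries, each times that library's step. Whole reads came out for 100% of 14382 values a group, to the printed digits, with a single solution for 99.8% (ethanol) and 99.95% (4-OHT). The design had assumed values per library, which were obtained in this way. Several pairs of reads were possible for 34 ethanol and 7 4-OHT values, and 28 and 7 of these were settled by taking the only pair with libraries within 2-fold of each other, which assumes that they agree. Of the 29 genes so settled and tested, 1 is a member, Atp5a1. The 6 genes not settled were left out, and 14376 were tested. Effective library sizes were 6451759 and 6410293 (ethanol) and 7035534 and 6291532 (4-OHT). Libraries carried no molecular identifiers that the labels name, so reads may include copies of 1 molecule.

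The main test was limma 3.58.1 with a trend on log2(CPM + 1), with Benjamini-Hochberg adjustment over all genes tested and a threshold of 0.05. A log2 fold change on this scale understates the change of low genes. Alternatives were edgeR 4.0.16 and DESeq2 1.42.0 on recovered reads, a pseudocount of 0.1, a filter, other scalings and thresholds, and leaving out each library. The fits were also run on simulated counts with the same dispersion for all genes and no shift between libraries. That run cannot show how they behave on these libraries. The members and lists were chosen with earlier results of these data known. Named are members that passed, the farthest and highest of each complex, Sdh genes, paralogs, up to 4 called genes of each other list, and Arid1a, Cyc1, Cycs, Pdk1 and Ldha. Other members named were chosen after their values were seen. Transcript lengths are the median over a gene's APPRIS principal transcripts in GENCODE vM21. This was the last of 3 length rules tried, after the union of exons and the longest principal transcript, and each was chosen after levels per kilobase were seen. Copies were found with blastn 2.17.0.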

Additional observations from a re-analysis of the deposited data

How the results depend on the processing

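No value for a called gene changed direction in any alternative run. Members called higher and lower (1 and 1 in limma) became 2 and 3 with a minimum mean log2 CPM of 1 and in edgeR, and the lower count became 0 with a pseudocount of 0.1, in DESeq2 and at a threshold of 0.01, and 2 at a threshold of 0.1. With finished subunits alone, 0 were called higher. All genes called (1360) became 2042 in edgeR, 700 in DESeq2, 638 at 0.01 and 2062 at 0.1. Leaving out 1 library at a time gave 0 to 2 members higher, 0 to 9 lower, 0 to 1782 genes in all, and a median log2 fold change of complex IV from -0.14 to 0.021. limma called 0 genes in all without either 4-OHT library, where the lone sample is assumed to vary like the ethanol pair. Scaling by DESeq2 size factors, TMM or total reads moved no call of a member.

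Levels per kilobase and paralog shares depend on the length rule, an alternative chosen after seeing the data. Under the longest principal transcript and the union of exons, Cox6b2 made up 24.6% and 16.5% of its pair with ethanol (25.7% as reported), and Ndufa4l2 0.530% and 1.02% (0.462%). With 4-OHT, Ndufa4l2 made up 2.90% and 5.45% (2.53%). The median per kilobase with and without a pseudogene copy was 58.6 and 115, or 30.1 and 70.6. The correlation of length with the ratio of the 4-OHT libraries was -0.28 and -0.25.

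No paired analysis was possible because the columns carry no replicate numbers. With 2 libraries a group, members at a few reads, such as Cox4i2, Cox7b2 and Cox8c, are not resolved.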
